A study of Mus musculus with 4 samples.

Results

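NK cells and ILC1-like cells were taken from 4 single-cell RNA libraries of dissociated mouse liver as barcodes that passed a quality filter and carried at least 2 UMIs (unique molecular identifiers, each counted as 1 captured RNA molecule) of Ncr1 plus Klrb1c. They also had to carry no UMI of Cd3d, Cd3e or Cd3g, fewer than 2 of Cd79a and none of Csf1r or Stab2. This gate held 899 of 42454 passing barcodes. Within it, cells with at least 1 Eomes UMI (Eomes+) were set against cells with no Eomes UMI and at least 1 Cxcr6 UMI (Eomes-Cxcr6+). Because these transcripts chose the cells, their own levels are given as a description and were not tested.

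The 4 libraries were labelled KO early hepatocellular carcinoma (eHCC), WT eHCC, KO premalignant liver and WT premalignant liver, where KO and WT refer to Mef2d, a MADS-box transcription factor gene. Pieces of premalignant liver or early tumour were dissociated with a Miltenyi kit, and cells were captured with the 10x Genomics 5′ gene expression assay. Each group was 1 library. The deleted part of Mef2d, the cells that carry the deletion, the way the tumours were raised, and the strain, age and number of animals behind each library were not given in the sources used here. No difference between libraries could therefore be tested against the spread between animals, and intervals on such differences cover counting error only.

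Natural killer (NK) cells circulate through the liver and kill target cells by releasing perforin and granzymes, and type 1 innate lymphoid cells (ILC1) stay in the tissue and act mainly through cytokines and the death ligand TRAIL. Both carry the activating receptor NKp46, encoded by Ncr1, and NK1.1, encoded by Klrb1c, and both use the T-box factor T-bet. NK cells also need the related T-box factor Eomes, whereas liver ILC1 carry CXCR6, a receptor for a chemokine displayed on sinusoidal endothelium, and the integrin CD49a.

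The libraries held between 56458438 and 118594527 UMIs and between 8963 and 13712 passing barcodes. Between 27 and 46 barcodes, counted before the quality filter, were shared by each pair of libraries, and no barcode was in the gate of both libraries of a pair. Mef2d RNA was detected in the gate of every library. Its level, in CPM (UMIs scaled to a total of 1000000 in each pool of cells), was 100 in the KO eHCC library (counting interval 87.7 to 113), 56.5 in WT eHCC (44.8 to 70.2), 117 in KO premalignant (97.2 to 139) and 86.4 in WT premalignant (68.3 to 108). The libraries labelled KO thus held more Mef2d RNA than the WT library of the same stage, with a log2 ratio of 0.82 (0.45 to 1.21) at eHCC and 0.43 (0.02 to 0.86) at the premalignant stage. T cells, defined below, went the same way, at 104 and 68.5 CPM in KO and WT eHCC and 99.2 and 73.0 in KO and WT premalignant. B cells did so at 117 and 93.8 and at 162 and 95.6. A UMI at the 5′ end does not show whether the transcript carries a deletion further along, so this count does not check the genotype label, and every direction below refers to the library labelled KO.

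The label of the cells was checked against markers. The summed level of 10 core NK and ILC1 genes that the rule did not use was 10236 CPM in KO eHCC, 9030 in WT eHCC, 12811 in KO premalignant and 13312 in WT premalignant. The same sum stayed between 2525 and 3161 in T cells (at least 2 CD3 UMIs and no Ncr1 or Klrb1c UMI, 11492 cells) and between 124 and 218 in B cells (4416 cells). Trac, the T cell receptor alpha constant gene that the gate did not use, was at 11.1 to 21.3 CPM in the gates, against 578 to 756 in the T cells. Other T cell genes were less clearly apart. The list of 13 T cell markers, with the CD3 genes at 0 by the rule, summed to 911 to 1341 against 6378 to 8205. Trbc2 was at 278 to 494 against 1163 to 1841. The 6 gamma-delta T cell markers summed to 75.3 to 241 against 197 to 399. Among them, Trdc in KO premalignant was higher in the gate (42.0) than in T cells (31.1). The ILC3 markers Il22, Il23r and Il17a and the ILC2 markers Il5, Il13 and Il17rb had no UMI in any gate. The whole list of 7 ILC2 markers summed to 88.3 to 131 CPM in the gates and 96.5 to 114 in T cells, and that of 6 ILC3 markers to 0.837 to 23.3 in the gates, highest in WT premalignant, and 8.79 to 118 in T cells. The label NK cells and ILC1-like cells was kept on these values.

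The absence of CD3 UMIs decided much of the gate. Of 620, 464, 562 and 425 cells with at least 2 UMIs of Ncr1 plus Klrb1c in KO eHCC, WT eHCC, KO premalignant and WT premalignant, 341, 200, 280 and 208 carried a CD3 UMI and were left out. Left-out cells with exactly 1 CD3 UMI (80, 31, 26 and 9 cells) had Gzma at 4965, 1155, 5029 and 3473 CPM, Eomes at 151, 159, 124 and 131, and Trac at 28.7, 0, 23.3 and 0. Their Trac level was near that of the gate and below that of T cells. At the receptor threshold, gate cells with exactly 2 UMIs of Ncr1 plus Klrb1c had Gzma levels of 3715, 1175, 6964 and 6409 CPM in the same order, and cells with exactly 1, just outside, had 2495, 311, 2375 and 2751.

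Gate cells made up 2.93% of passing barcodes in KO eHCC (263 cells, exact 95% interval 2.59 to 3.30), 2.23% in WT eHCC (229 cells, 1.95 to 2.53), 2.52% in KO premalignant (239 cells, 2.21 to 2.85) and 1.23% in WT premalignant (168 cells, 1.05 to 1.42). The share was 1.32-fold higher in the KO than in the WT library at eHCC (log2 ratio 0.40, 0.14 to 0.66) and 2.05-fold higher at the premalignant stage (1.04, 0.75 to 1.33). Between stages the log2 ratio of eHCC over premalignant was 0.22 (-0.04 to 0.48) in KO and 0.86 (0.57 to 1.16) in WT. These shares depend on depth and on which other cells a dissociation released. The gate cells had a median of 8159 UMIs in KO eHCC, 5914 in WT eHCC, 4068 in KO premalignant and 4656 in WT premalignant, and when every cell was thinned to 1000 UMIs and gated again, 74, 88, 133 and 94 cells met the rule in the same order. The KO over WT log2 ratio of the share was then -0.05 at eHCC (-0.51 to 0.41) and 1.07 at the premalignant stage.

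The gate split into 138 Eomes+ and 47 Eomes-Cxcr6+ cells in KO eHCC, 76 and 61 in WT eHCC, 99 and 64 in KO premalignant, and 42 and 66 in WT premalignant. A further 78, 92, 76 and 60 cells had a UMI of neither gene. Eomes+ cells were 74.6% of both subsets together in KO eHCC (67.7 to 80.7), 55.5% in WT eHCC (46.7 to 64.0), 60.7% in KO premalignant (52.8 to 68.3) and 38.9% in WT premalignant (29.7 to 48.7). The KO library had the larger Eomes+ share at either stage, with log2 ratios of 0.43 (0.01 to 0.85) at eHCC and 0.64 (0.11 to 1.20) at the premalignant stage. After thinning these were 0.17 (-1.48 to 1.94, from 16 KO and 12 WT cells) and 0.56 (-0.55 to 1.78, from 39 and 23 cells). Both thinned ratios thus lay within counting error. Before thinning, both stage ratios also lay within counting error (0.30, -0.09 to 0.68 in KO and 0.51, -0.05 to 1.09 in WT). The share of gate cells with an Eomes UMI was 52.5%, 33.2%, 41.4% and 25% before thinning and 14.4%, 7.86%, 16.0% and 8.93% after it. In B cells, which should lack Eomes, 0.302% to 0.959% of cells had a UMI, at median depths of 3494 to 4833 UMIs.

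**Figure D1:**
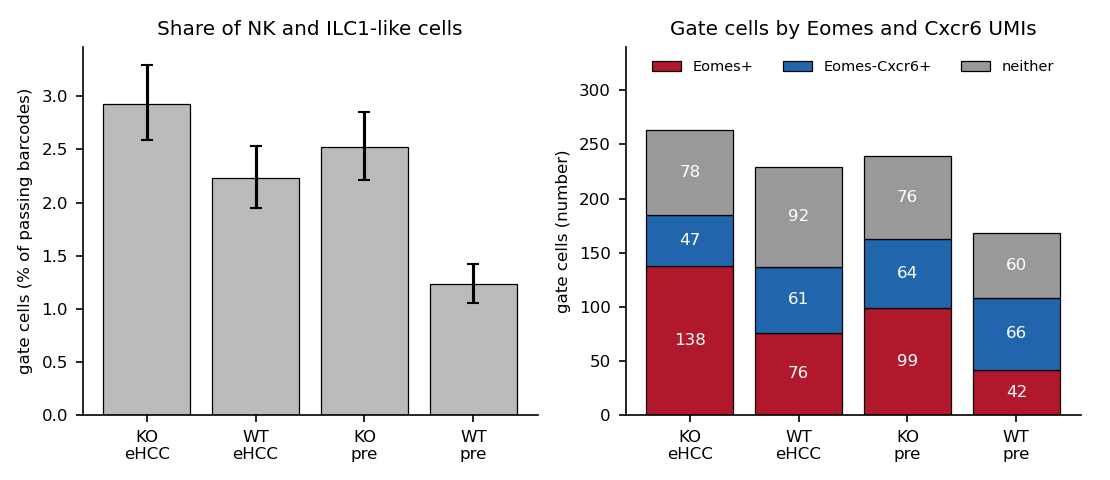
Left, gate cells as a percentage of passing barcodes in each library, with exact 95% binomial intervals (pre, premalignant). Right, the number of gate cells that were Eomes+, Eomes-Cxcr6+ or had neither UMI. The WT premalignant library has the lowest share (1.23%) and is the only one in which Eomes-Cxcr6+ cells (66) outnumber Eomes+ cells (42).

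The contrast of the subsets was the comparison that could be tested, since both came from every library. UMIs were summed per library and subset, and 5163 genes were tested with edgeR's quasi-likelihood test with library as a block. At a Benjamini-Hochberg adjusted p of 0.05, 196 genes were higher (3.80% of those tested) and 244 were lower (4.73%) in Eomes+ cells. The p-values measure the spread over 4 libraries, which may each hold several animals or 1.

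Genes of circulating NK cells were nearly all higher in Eomes+ cells. Of 20 listed genes, 16 were tested, 15 were higher and none was lower, with a median log2 fold change of 2.44 against 0.00 for all genes; Emb was the 1 gene that missed the threshold (-0.34, edgeR adjusted p = 0.38). Members of the Ly49 family, the Klra genes clustered on chromosome 6, led the contrast. They encode lectin-like receptors for MHC class I and related ligands. Klra8, the activating receptor Ly49H, was at 387, 463, 892 and 876 CPM in Eomes+ cells of KO eHCC, WT eHCC, KO premalignant and WT premalignant, against 0, 2.33, 33.0 and 0 in Eomes-Cxcr6+ cells (log2 fold change 6.35 ± 0.33 SE, edgeR adjusted p = 1.6e-12). Klra4, the activating receptor Ly49D, was at 436, 589, 1024 and 1075 against 19.4, 0, 33.0 and 0 (5.92 ± 0.34, edgeR adjusted p = 6.9e-12). No Eomes+ value of either gene came near an Eomes-Cxcr6+ value. Klra7, the inhibitory receptor Ly49G, was at 491, 365, 495 and 315 against 14.5, 11.6, 15 and 0 (5.31 ± 0.26). Klra1 (6.12), Klra3 (3.92) and Klra9 (2.03) were also higher. These genes are close copies of each other, so reads may have been shared among them, and the level of any 1 of them is uncertain.

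The stretches of 250 bases before the starts of Klra8 and Klra4, activating Ly49 genes among the largest differences, and of Gzma are shown to let the likeness of the Ly49 genes be seen beside an unrelated gene of the same subset. The windows are Klra8 at chr6:130129899-130130148, Klra4 at chr6:130067272-130067521 and Gzma at chr13:113100982-113101231, all on the minus strand (RefSeq, GRCm38.p6). They precede the first listed start of each gene. The Klra4 gene spans chr6:130043730-130067301, so part of its window lies inside the gene as listed. Capitals mark the longest run shared by the Klra genes and, in Gzma, the RUNX motif TGTGGT read on the other strand.
Klra8: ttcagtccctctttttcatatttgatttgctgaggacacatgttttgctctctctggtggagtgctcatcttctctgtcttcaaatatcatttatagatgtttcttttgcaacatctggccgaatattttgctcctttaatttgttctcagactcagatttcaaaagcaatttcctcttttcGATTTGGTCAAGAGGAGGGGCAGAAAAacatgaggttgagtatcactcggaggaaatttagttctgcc
Klra4: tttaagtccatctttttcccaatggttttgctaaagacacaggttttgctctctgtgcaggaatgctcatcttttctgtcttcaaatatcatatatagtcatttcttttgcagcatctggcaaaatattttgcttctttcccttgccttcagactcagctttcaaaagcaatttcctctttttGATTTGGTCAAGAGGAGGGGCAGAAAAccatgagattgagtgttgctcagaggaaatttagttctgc
Gzma: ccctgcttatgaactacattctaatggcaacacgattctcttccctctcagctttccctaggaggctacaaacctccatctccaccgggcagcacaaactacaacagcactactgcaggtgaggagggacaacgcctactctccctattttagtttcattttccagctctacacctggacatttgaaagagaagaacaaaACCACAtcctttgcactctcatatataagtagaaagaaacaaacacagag
The Klra windows matched at 212 of 251 aligned positions (84.5%) and shared a run of 27 bases. The T-box half-site TCACACC, searched on both strands, was in none of the 3 windows, and the RUNX motif was in Gzma alone, 50 bases before the start. Among higher genes with a window, 4.64% held the T-box letters (7 of 151), against 3.91% of lower genes (7 of 179) and 3.31% of all listed genes. The RUNX letters were in 11.3%, 11.2% and 14.2% of the same sets. Of the tested genes with a window, 2.80% held the T-box letters and 11.2% the RUNX letters. Letters that match or are missing in these windows say nothing of whether a factor binds.

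Receptors and enzymes of mature NK cells followed the Ly49 genes. Klrg1, an inhibitory receptor for cadherins, was at 91.5, 52.2, 63.6 and 125 CPM in Eomes+ cells of KO eHCC, WT eHCC, KO premalignant and WT premalignant, against 4.84, 2.33, 0 and 5.44 in Eomes-Cxcr6+ cells (4.60 ± 0.39, edgeR adjusted p = 5.9e-09). Sh2d1a, the SAP adaptor of SLAM family receptors, was at 223, 163, 239 and 234 against 26.6, 2.33, 6 and 16.3 (4.04 ± 0.27). Itgam, the integrin CD11b, was at 96.6, 54.3, 224 and 148 against 12.1, 11.6, 18.0 and 2.72 (3.46 ± 0.31). The subsets did not overlap for any of the 3 genes. These genes were picked for large differences, and the share of all tested genes without overlap was not counted. Cma1, a chymase, was at 112, 58.7, 160 and 218 in Eomes+ cells and had UMIs in Eomes-Cxcr6+ cells of the KO eHCC library only, at 9.69 (5.56 ± 0.44, edgeR adjusted p = 2.2e-09). In that library Cma1 was also found in T cells at 34.3 CPM, against 0 to 0.221 in T cells of the others, and its part in the result was not tested. Phactr3 (4.76), Khdc1a (4.63) and As3mt (3.92) completed the 12 largest differences.

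Of 17 trafficking and adhesion receptors tested, 9 were higher, among them Itga2 (2.50), Ccr2 and Cxcr4 (1.05 ± 0.26, edgeR adjusted p = 0.01), and Cxcr3, Itga1 and Itgb7 were lower. Among 20 lineage transcription factors, 4 were higher and 5 were lower. Zeb2, which drives the last steps of NK maturation, was at 71.7, 157, 443 and 448 CPM in Eomes+ cells of KO eHCC, WT eHCC, KO premalignant and WT premalignant, against 21.8, 37.3, 48.0 and 46.2 in Eomes-Cxcr6+ cells (2.75 ± 0.22, edgeR adjusted p = 3.8e-09). Its Eomes+ level was low in both eHCC libraries and high in both premalignant ones. Klf2 (1.53 ± 0.19), a regulator of lymphocyte trafficking, Irf8 (1.78 ± 0.18) and Lef1 (2.05 ± 0.36) were also higher. Tbx21, which encodes T-bet, was at 99.5, 139, 239 and 238 against 155, 147, 192 and 144 (0.07, edgeR adjusted p = 0.91). In the MEF2 family Mef2c was higher (1.65 ± 0.31, edgeR adjusted p = 0.00066) and Mef2d was not called (0.59 ± 0.20, edgeR adjusted p = 0.068).

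**Figure D2:**
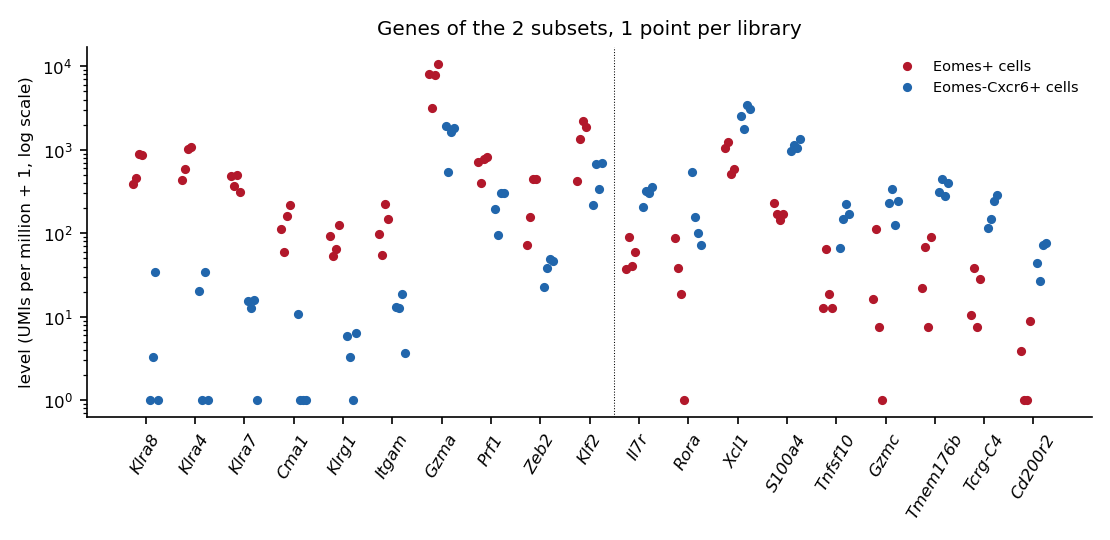
Level of 19 genes in Eomes+ and Eomes-Cxcr6+ cells, as CPM plus 1 on a log axis, 1 point per library. Genes left of the dotted line were higher and genes right of it lower in Eomes+ cells by edgeR. The colours stay apart for every gene but Klf2 and Rora. The genes shown were chosen from those called, so the share of all tested genes without overlap is not shown.

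Genes of liver ILC1 showed the opposite picture. Of 26 listed genes, 20 were tested, 17 were lower in Eomes+ cells and none was higher (median -2.42), and Cd69, Sdc4 and Ikzf3 missed the threshold. Il7r, the interleukin 7 receptor, was at 35.9, 89.1, 39.5 and 58.4 CPM in Eomes+ cells of KO eHCC, WT eHCC, KO premalignant and WT premalignant, against 208, 317, 300 and 362 in Eomes-Cxcr6+ cells (-2.41 ± 0.18, edgeR adjusted p = 6.2e-10). Tnfsf10, which encodes TRAIL, was at 11.7, 63.0, 17.5 and 11.7 against 65.4, 149, 222 and 171 (-2.44 ± 0.28). Itga1, the integrin CD49a, was at 8.78, 100, 15.3 and 35.0 against 26.6, 142, 207 and 231 (-1.84 ± 0.31, edgeR adjusted p = 0.00022). For Itga1 the Eomes-Cxcr6+ value of the KO eHCC library lay among the Eomes+ values, and within each library the Eomes+ value was the lower.

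Rora, a nuclear receptor of innate lymphoid cells, was at 87.8, 37.0, 17.5 and 0 against 538, 154, 99.0 and 70.7 (-2.54 ± 0.22, edgeR adjusted p = 6.2e-09). It was highest in the KO eHCC library in both subsets. Tmem176a (-3.19) and Tmem176b (-3.21), a neighbouring pair of membrane protein genes, Ckb (-3.57), a creatine kinase, and Cd200r2 (-4.24), a CD200 receptor family member, were among the 12 lowest, with Gcnt2, Podnl1, Sema6d, Asb2 and Klk8 (-3.50 to -2.99). The gamma chain constant gene Tcrg-C4 was at 9.51, 37.0, 6.58 and 27.3 against 116, 149, 240 and 283 (-3.29 ± 0.27). Other T cell genes went the same way: Bcl11b was -2.60, Trbc2 -1.17 and Trbc1 -0.48, while Trdc, the delta chain constant gene, was higher. Trac was at 11.1 to 21.3 in the whole gates, and the part of T cells in these differences was not tested.

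Effector genes were divided between the subsets. Of 17 tested genes of cytotoxic granules and death ligands, 3 were higher and 3 lower in Eomes+ cells. Gzma, granzyme A, was at 8144, 3180, 7815 and 10697 CPM in Eomes+ cells of KO eHCC, WT eHCC, KO premalignant and WT premalignant, against 1935, 547, 1650 and 1806 in Eomes-Cxcr6+ cells (2.37 ± 0.11, edgeR adjusted p = 4.3e-13). Prf1, perforin, was at 710, 402, 774 and 810 against 194, 93.1, 300 and 302 (1.68 ± 0.14). Gzmc, granzyme C, was the reverse, at 15.4, 111, 6.58 and 0 against 230, 340, 123 and 245 (-3.0 ± 0.32, edgeR adjusted p = 3e-07). Gzmb, granzyme B, was at 1405, 278, 881 and 1094 against 848, 200, 948 and 2083 (0.04 ± 0.18, edgeR adjusted p = 0.95), higher in Eomes+ cells at eHCC and lower at the premalignant stage in both genotypes. Xcl1, a chemokine for cross-presenting dendritic cells, was at 1042, 1228, 517 and 580 against 2526, 1776, 3480 and 3084 (-1.69 ± 0.22, edgeR adjusted p = 4.8e-06). Ccl5 was higher (0.62) and Ccl4 (-0.74) and Ltb (-1.60) were lower, while Ifng (-0.10, edgeR adjusted p = 0.81) and Ccl3 (0.22, edgeR adjusted p = 0.63) were not called. Of 18 inhibitory receptors and checkpoint genes tested, 6 were higher, namely Klrg1 and 5 Klra genes, and 8 were lower, among them Ctla4 at -2.64, Lag3 at -1.69 and Cd200r1 at -2.97. No member of the ribosomal protein list (28 tested) was called, and 7 of 19 interferon response genes were lower, with Isg15 at -1.31.

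Cells with neither UMI lay between the subsets. The summed level of the 12 genes with the largest positive fold changes was 2343, 2202, 3696 and 3540 CPM in Eomes+ cells of KO eHCC, WT eHCC, KO premalignant and WT premalignant, 975, 898, 2472 and 2325 in cells with neither UMI, and 109, 30.3, 150 and 65.3 in Eomes-Cxcr6+ cells. For the 12 with the largest negative ones the sums were 111, 428, 70.1 and 238 in Eomes+ cells, 569, 923, 590 and 851 in cells with neither UMI, and 1506, 2065, 1692 and 2132 in Eomes-Cxcr6+ cells. Haemoglobin RNA moved with the subsets in 1 library: 3 Eomes+ cells of KO eHCC held 13198 of its 17056 haemoglobin UMIs in the gate, and all 3 erythroid genes tested were higher in Eomes+ cells. With DESeq2 in place of edgeR 74 genes were higher and 91 lower, and without the library block edgeR called 41 and 49.

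At eHCC, gate cells of the KO library held more RNA of Gzma, Gzmb and Prf1 and of cell cycle, interferon response and glycolysis genes than those of the WT library, and less of several ILC1 and immediate-early genes. Of 6320 genes with at least 50 UMIs in both libraries together, 10.1% were at least 1.5-fold higher and 13.0% at least 1.5-fold lower, with a median log2 ratio of -0.04 (0.08 after scaling by edgeR's TMM factors). For each pair the 8 highest and 8 lowest ratios were ranked only among genes with at most 20% of either library's UMIs in 1 cell, and with a gate level of at least 0.1 of that in all other barcodes of the same library, in at least 1 of the libraries. Genes of the free RNA lists, such as haemoglobin and hepatocyte genes, were not ranked, so genes outside the ranking can have more extreme ratios. Of 17 genes of cytotoxic granules and death ligands, 7 were at least 1.5-fold higher and 4, Gzmc, Ctsc, Rab27a and Tnfsf10, were lower (median 0.19). Gzma was at 6273 CPM in KO eHCC and 1746 in WT eHCC (log2 ratio 1.85, counting interval 1.78 to 1.91), and Gzmb at 1325 and 227 (2.55, 2.38 to 2.72). Prf1 was at 569 in KO eHCC and 222 in WT eHCC (1.36, 1.18 to 1.54). The WT eHCC library was the low one of all 4 for these genes: Gzma was at 6235 in KO premalignant and 6543 in WT premalignant, Gzmb at 998 and 1617, and Prf1 at 621 and 675. Irf8, a transcription factor with a role in NK maturation, was at 1162 in KO eHCC, 198 in WT eHCC, 586 in KO premalignant and 461 in WT premalignant (KO over WT at eHCC 2.55, 2.38 to 2.73). Ccl5 was at 12023 in KO eHCC and 5813 in WT eHCC (1.05), and Serpinb9, which shields a killer cell from its own granzyme B, at 660 and 241 (1.46).

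The mix of subsets differed between these libraries, so the ratios were also taken within each subset. Gzma had a log2 ratio of KO over WT at eHCC of 1.36 (1.28 to 1.44) in Eomes+ cells and 1.82 (1.61 to 2.04) in Eomes-Cxcr6+ cells. For Gzmb these were 2.34 and 2.08, for Irf8 1.85 and 3.03, and for Prf1 0.82 and 1.06. Each of the 4 genes was thus higher in the KO library in either subset. T cells of the same libraries had Gzma at 571 and 201 and Gzmb at 634 and 115 CPM in KO and WT eHCC, and B cells, which should lack both, had Gzma at 23.5 and 2.19. The part of free RNA in the gate values was not tested, and Gzma in B cells was below 1% of its gate level in both libraries. Of the circulating NK genes, 11 of 17 measured were at least 1.5-fold higher (median 0.88; Eomes+ cells 0.58, Eomes-Cxcr6+ cells 1.06), and Klf2 was lower, at 427 in KO eHCC and 1014 in WT eHCC (-1.25). Of ILC1 genes 12 of 21 were at least 1.5-fold lower (median -1.05; Eomes+ cells -1.21, Eomes-Cxcr6+ cells -0.43), among them Itga1, at 23.0 and 123, Inpp4b, an inositol phosphatase, at 28.4 and 197, Tnfsf10, at 25.9 and 99.7, and Il7r, at 86.2 and 227. Rora was the exception, at 218 in KO eHCC and 89.2 in WT eHCC (1.29).

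**Figure D3:**
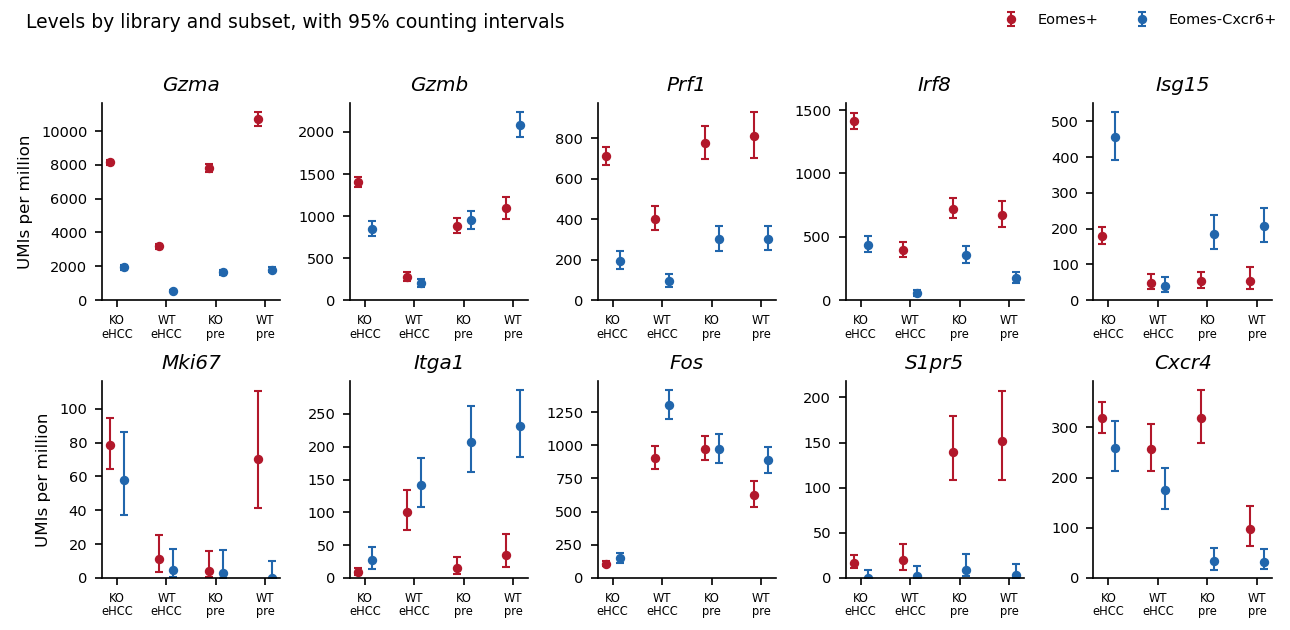
Level of 10 genes in CPM in Eomes+ and Eomes-Cxcr6+ cells of each library (pre, premalignant), with exact 95% Poisson intervals that cover counting error only. Gzmb in the WT eHCC library (278 and 200) and Fos in the KO eHCC library (105 and 148) lie below the other libraries in both subsets, and S1pr5 is above 100 CPM only in Eomes+ cells of the premalignant libraries.

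Cell cycle genes stood out in the KO eHCC library. Of 25 measured S and G2/M phase genes, 20 were at least 1.5-fold higher in KO than in WT eHCC and none was lower (median 2.46). A gene was measured if the pair together held at least 50 UMIs, so it could pass through its KO eHCC level alone. In the premalignant pair 8 genes of this list were measured, so the eHCC count and median favour genes that are high in KO eHCC. Cdk1, the mitotic kinase, was at 33.5 CPM in KO eHCC and 3.49 in WT eHCC (3.26, 1.98 to 4.92), and at 1.87 in KO premalignant and 5.54 in WT premalignant. Top2a was at 104 and 14.6 in the eHCC pair and Mki67 at 63.2 and 5.58 (3.5), with an Mki67 UMI in 24 cells of KO eHCC and 5 of WT eHCC. Cenpw (2.56) and Cdc25b (2.75) were also among the 8 highest ranked. The median over the list was 1.51 in Eomes+ cells (19 genes) and 1.23 in Eomes-Cxcr6+ cells (5 genes). In the same pair it was 0.40 in T cells (28 genes) and -0.79 in B cells (15 genes), so these medians cover unlike sets of genes. The number of cycling cells was compared at equal depth, as the share with at least 3 UMIs of these genes after thinning to 1000 UMIs. It was 16.0% of gate cells in KO eHCC (11.8 to 21.0) and 7.42% in WT eHCC (4.38 to 11.6). In KO premalignant it was 9.66% (6.23 to 14.1) and in WT premalignant 11.9% (7.43 to 17.8). The KO eHCC interval overlapped those of both premalignant libraries. Without thinning the shares were 96.2%, 78.2%, 74.9% and 83.3%, and after thinning T cells had 24.1%, 13.4%, 17% and 17.2% and B cells 9.59%, 8.18%, 6.37% and 5.92%. KO eHCC thus had the largest share in T cells as well.

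Of 28 interferon response genes, 20 were at least 1.5-fold higher in KO than in WT eHCC and 1, Isg20, was lower (median 1.42). In Eomes+ cells the median was 0.62 (20 genes) and in Eomes-Cxcr6+ cells 0.82 (14 genes). In the premalignant pair 17 genes of this list were measured, so this set too favours genes that are high in KO eHCC. Isg15, a ubiquitin-like modifier, was at 243 CPM in KO eHCC, 47.4 in WT eHCC, 99.0 in KO premalignant and 120 in WT premalignant (KO over WT at eHCC 2.36, 2.0 to 2.74). Ifi27l2a, which was outside the ranking of this pair, was at 376, 21.6, 9.34 and 81.9 (4.12). T cells of the eHCC pair had a list median of 0.94 (31 genes) and B cells 0.35 (19 genes), again over unlike sets. Of 18 glycolysis and hypoxia genes 12 were at least 1.5-fold higher (median 0.79; T cells 0.60, B cells -0.04). Vegfa, the angiogenic growth factor, was at 176 in KO eHCC, 55.8 in WT eHCC, 33.6 in KO premalignant and 12.2 in WT premalignant, against 2.08 to 9.62 in T cells. Ldha was at 394 and 186 in KO and WT eHCC, and Gapdh at 1001 and 525.

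Of the other high ratios of KO over WT eHCC, Crem, a cAMP-responsive transcription factor, was at 328 and 55.1 CPM (2.57), Plac8 at 289 and 48.8 (2.57) and Gramd3 at 143 and 23.0 (2.63). Among the lowest, Fos, an AP-1 subunit, was at 132 in KO eHCC, 1164 in WT eHCC, 971 in KO premalignant and 775 in WT premalignant (-3.14, -3.32 to -2.96), with the KO eHCC library alone at the low end. Jun followed at 177, 736, 879 and 840. Of 19 immediate-early genes 9 were at least 1.5-fold lower, and Fosl2, Nr4a2 and Nr4a3 were the 3 higher, with Nr4a3 at 399 in KO eHCC and 158 in WT eHCC. T cells had Fos at 153 and 748 and B cells at 174 and 866 in the same pair, so the low Fos level was found in all 3 populations of the KO eHCC library. Pacsin1 (-4.22), Gm26532 (-3.23), Gpr34 (-3.06), Hvcn1 (-2.69) and Rgs10 (-2.62) completed the 8 lowest ranked. Ifng was at 173 in KO eHCC and 278 in WT eHCC (-0.68). Macrophage RNA moved with this pair: the summed level of 11 macrophage markers in the gate was 165 in KO eHCC and 740 in WT eHCC, with Csf1r at 0 by the rule, and neutrophil markers summed to 32.6 and 275. Erythroid genes went the other way, at 7149 and 186. The part of these RNAs in the ratios was not tested.

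At the premalignant stage KO and WT gate cells were closer. Of 5367 genes, 13.7% were at least 1.5-fold higher and 6.17% at least 1.5-fold lower (median 0.06), and the highest ranked ratio was 1.99, against 3.26 in the eHCC pair. It was that of Cxcr4, a chemokine receptor, which was at 215 CPM in KO premalignant and 54.3 in WT premalignant (1.99, 1.54 to 2.46). The ratio of Cxcr4 was 1.71 in Eomes+ cells (318 and 97.4) and 0.02 in Eomes-Cxcr6+ cells (33.0 and 32.6), and the KO premalignant library was level with the eHCC libraries in Eomes+ cells (318 and 257). Psme4, Ralgapb, Zfp395, Msl2, Ahdc1 and Taf1 followed at 1.5 to 1.61, and Gm42418, a transcript that overlaps a ribosomal RNA locus, at 1.48. Ifitm2 was the lowest ranked, at 59.8 in KO premalignant and 202 in WT premalignant (-1.75, -2.19 to -1.33), followed by Mgat4b, Pdlim2, Med29, Cdkn2c, Slc25a4, Jaml and Camk2b (-1.48 to -1.20).

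Cytotoxic genes did not repeat the eHCC difference in this pair. Gzma was at 6235 CPM in KO premalignant and 6543 in WT premalignant (-0.07, -0.12 to -0.02), Prf1 at 621 and 675, and Gzmb at 998 and 1617 (-0.70, -0.81 to -0.58). In Eomes-Cxcr6+ cells the Gzmb ratio was -1.14. Circulating NK genes had a median of 0.35 (3 of 17 at least 1.5-fold higher, none lower) and ILC1 genes of -0.41 (8 of 20 lower, none higher). Within Eomes+ cells these medians were -0.02 and 0.34, and within Eomes-Cxcr6+ cells -0.07 and -0.24. These rest on fewer genes in part, with 17 and 6 measured in Eomes+ cells and 8 and 19 in Eomes-Cxcr6+ cells. Interferon response genes had 16 of 17 measured members below 0 (median -0.21, all genes 0.06). Ifi27l2a, at 9.34 and 81.9 (-3.13), was the lowest and was outside the ranking. The interferon median was 0.10 in Eomes+ cells (3 of 5 genes above 0) and -0.18 in Eomes-Cxcr6+ cells (11 genes). In T cells it was -0.15 and in B cells -0.01. Immediate-early genes had 18 of 20 above 0 (median 0.45, T cells 0.44, B cells 0.77). Within Eomes+ cells 16 of 17 were above 0 (median 0.61), and within Eomes-Cxcr6+ cells 10 of 18 (median 0.16). Heat shock genes had 11 of 12 above 0 (median 0.42, T cells 0.24, B cells 0.43). Their medians were 0.41 in Eomes+ cells and 0.43 in Eomes-Cxcr6+ cells. Hspa1a was at 567 in KO premalignant and 349 in WT premalignant. Sinusoidal endothelial markers summed to 243 in KO premalignant and 758 in WT premalignant in the gate, with Stab2 at 0 by the rule, and hepatocyte RNA to 1172 and 880; their part in the ratios was not tested.

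**Figure D4:**
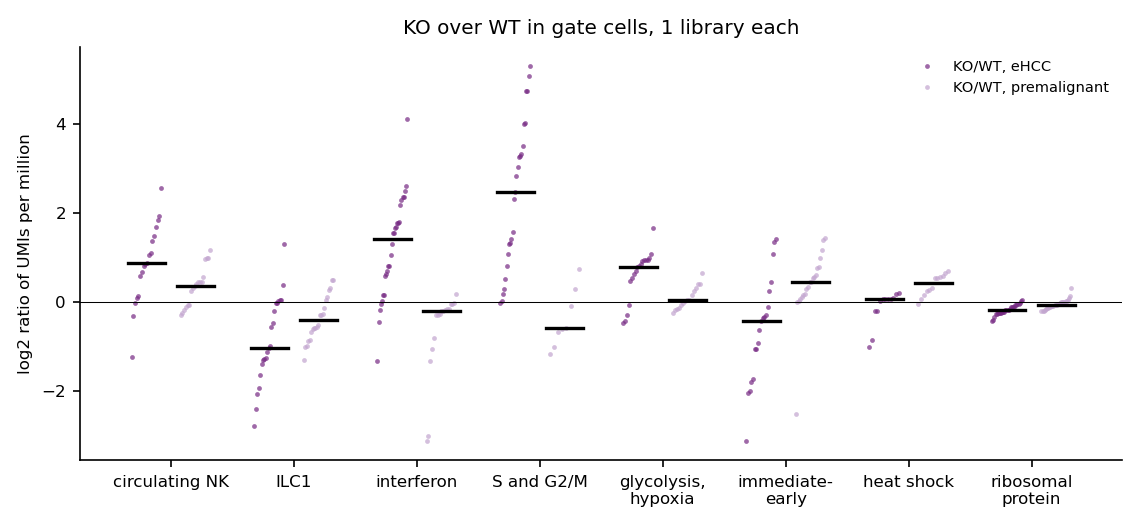
Log2 ratio of KO over WT in gate cells at eHCC (dark) and at the premalignant stage (light) for 8 gene lists, 1 point per gene with at least 50 UMIs in the pair and a bar at the median. Genes at 0 UMIs in 1 library have no point. The S and G2/M medians are 2.46 at eHCC (25 genes) and -0.60 at the premalignant stage (8 genes). The interferon medians are 1.42 (28 genes) and -0.21 (17 genes), so the stages are shown over unlike sets of genes.

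Among 5172 genes measured in both pairs, 77 were higher in KO at both, which is 17.4% of the genes higher at eHCC and 11.0% of those higher at the premalignant stage. Of all these genes 13.5% were higher at the premalignant stage and 8.57% at eHCC. Lower at both were 49, or 8.45% and 19.8%, where 4.78% of all were lower at the premalignant stage and 11.2% at eHCC. Nr4a3, an orphan nuclear receptor, was among those higher at both, at 399 and 158 CPM in the eHCC pair and 141 and 63.1 in the premalignant pair, and it was also higher in T cells, at 282 and 122 and at 75.6 and 32.0. Gzmc was lower at both stages, at 65.3 and 159 in the eHCC pair and 41.1 and 102 in the premalignant pair.

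Comparing stages within the KO label, gate cells of eHCC held more cell cycle, interferon response and ribosomal protein RNA than premalignant ones, and less S1pr5, Zeb2, Fos and Ifng. Of 6331 genes, 6.79% were at least 1.5-fold higher and 34.7% at least 1.5-fold lower, with a median of -0.35. Scaling by TMM factors, whose log2 ratio was -0.49, made this 23.0% higher and 11.6% lower with a median of 0.15, so each value below is to be read against the median of -0.35. Tpx2, a spindle assembly factor, had 53 UMIs in KO eHCC and none in KO premalignant, or at least 7.91-fold more when the empty library is set to 3 UMIs. Ifi27l2a was at 376 and 9.34 CPM (5.33, 4.44 to 6.39) and Top2a at 104 and 4.67 (4.47). In cells thinned to 1000 UMIs and gated again, the Top2a ratio turned to -0.74 and that of Hist1h2ap to -1.96. Of 24 S and G2/M genes 18 were at least 1.5-fold higher (median 2.69, T cells 0.74, B cells -0.43), and of 27 interferon genes 18 (median 1.27, T cells 0.99, B cells 0.09). In the WT stage pair 11 and 17 genes of these lists were measured, so the KO sets favour genes that are high in KO eHCC. In T cells 28 and 31 were measured. Hist1h2ap, Isg20, Ms4a4c, Crem and Gramd3 completed the 8 highest ranked (3.98 to 2.55).

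S1pr5, a sphingosine phosphate receptor that lets NK cells leave tissue, was at 13.4 CPM in KO eHCC and 114 in KO premalignant (-3.09, -3.70 to -2.52). In Eomes+ cells it was at 16.8 and 140. Zeb2 was at 74.9 and 359 (-2.26) and Klf2 at 427 and 1715 (-2.01). Klra8 was at 254 and 536 and Klra4 at 295 and 594, so these named genes were lower at eHCC. Gzma, at 6273 and 6235 (0.01, -0.03 to 0.05), was level. Of 19 circulating NK genes measured in this pair, 9 were at least 1.5-fold lower, where 34.7% of all genes were. Irf8 and Emb were at least 1.5-fold higher, and the list median was -0.52 against -0.35 for all genes. Fos (-2.88), Cpne7 (-3.42), Fcgr2b (-3.05), Asb2 (-2.93), AI504432 (-2.90), Mcam (-2.74, but 0.69 in Eomes-Cxcr6+ cells) and Sh3bp2 (-2.74) were the other 7 of the 8 lowest ranked. Ifng was at 173 in KO eHCC and 678 in KO premalignant (-1.97), Ccl3 at 414 and 1533, and Ccl4 at 1344 and 2924, whereas Xcl1 was at 1538 and 1548. Of 20 trafficking receptors none was at least 1.5-fold higher and 10 were lower. Rora (218 and 61.6) and the checkpoint receptor Ctla4 (86.6 and 11.2) were higher at eHCC, in Eomes-Cxcr6+ cells as well (Ctla4 220 and 27.0).

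Comparing stages within the WT label, Gzmb, Gzma and Prf1 were lower at eHCC. Of 5436 genes, 5.68% were at least 1.5-fold higher and 19.7% at least 1.5-fold lower (median -0.22). With TMM scaling, whose factors had a log2 ratio of -0.30, these were 14.4% and 8.02% with a median of 0.08. Of 16 genes of cytotoxic granules and death ligands, 4 were at least 1.5-fold lower and 2, Gzmc and Rab27a, were higher, with a median of -0.19, near that of all genes. Gzmb was at 227 CPM in WT eHCC and 1617 in WT premalignant (-2.83, -3.01 to -2.66), Gzma at 1746 and 6543 (-1.91) and Prf1 at 222 and 675 (-1.60). The Gzma ratio was -1.75 in Eomes+ and -1.72 in Eomes-Cxcr6+ cells, and T cells had Gzma at 201 and 369. Of 17 circulating NK genes 13 were at least 1.5-fold lower and 1, Emb, higher (median -1.25; Eomes+ cells -0.97, Eomes-Cxcr6+ cells -1.70). S1pr5 was at 9.06 and 84.1 (-3.21) and Zeb2 at 93.4 and 262 (-1.49). Both were lower at eHCC in WT, as they were in KO, though the fall in Zeb2 was smaller in WT than in KO. Ifitm2 (-3.65), Selenop (-2.75), Plxnc1 (-2.74), Gadd45g (-2.65), Cd55 (-2.55) and Tesc (-2.40, but 1.16 in Eomes+ cells) were the rest of the 8 lowest ranked.

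Isg20, an interferon-induced exonuclease, was at 91.3 CPM in WT eHCC and 6.64 in WT premalignant (3.78, 2.62 to 5.25), although 10 of 17 interferon genes were at least 1.5-fold lower (median -0.72; Eomes+ cells 0.16, Eomes-Cxcr6+ cells -0.87). Lgals3, galectin 3, was at 187 and 41.0 (2.19) and Cxcr4 at 245 and 54.3 (2.17). Rgs10, Smyd3 and 1700017B05Rik were at 2.43, 2.12 and 2.82. Gm42418 was at 12629 in WT eHCC and 1805 in WT premalignant, with 10684 and 1973 in T cells and 12675 and 2015 in B cells, and Rpl5 at 3076 and 700, with 3195 and 1130 in T cells. All 28 ribosomal protein genes had ratios above 0 in both stage comparisons (median 0.62 in KO and 0.68 in WT), against medians of 0.20 and 0.03 in T cells and 0.32 and 0.12 in B cells. Liver parenchyma RNA moved with stage: hepatocyte genes summed to 60.7 in KO eHCC and 1172 in KO premalignant, and to 252 in WT eHCC and 880 in WT premalignant. Sinusoidal endothelial markers, among them Fcgr2b, summed to 10.9 in KO eHCC and 243 in KO premalignant, and to 32.8 in WT eHCC and 758 in WT premalignant. Erythroid genes summed to 7149 in KO eHCC and 43.9 in KO premalignant. Macrophage markers summed to 740 in WT eHCC and 162 in WT premalignant. The part of these RNAs in the stage ratios was not tested.

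The stage ratios of KO and WT rested on separate libraries. Of 5300 genes measured in both, 95 were at least 1.5-fold higher at eHCC in both labels, 31.8% of those higher in KO and 33.3% of those higher in WT, where 5.38% of all were higher in WT and 5.64% in KO. Lower in both were 486, 27.7% and 48.1%, where 19.1% of all were lower in WT and 33.1% in KO. S1pr5, Zeb2, Ccl3 and Ccl4 were lower, and Vegfa, Rora, Nr4a3 and Lgals3 higher, at eHCC under either label.

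**Figure D5:**
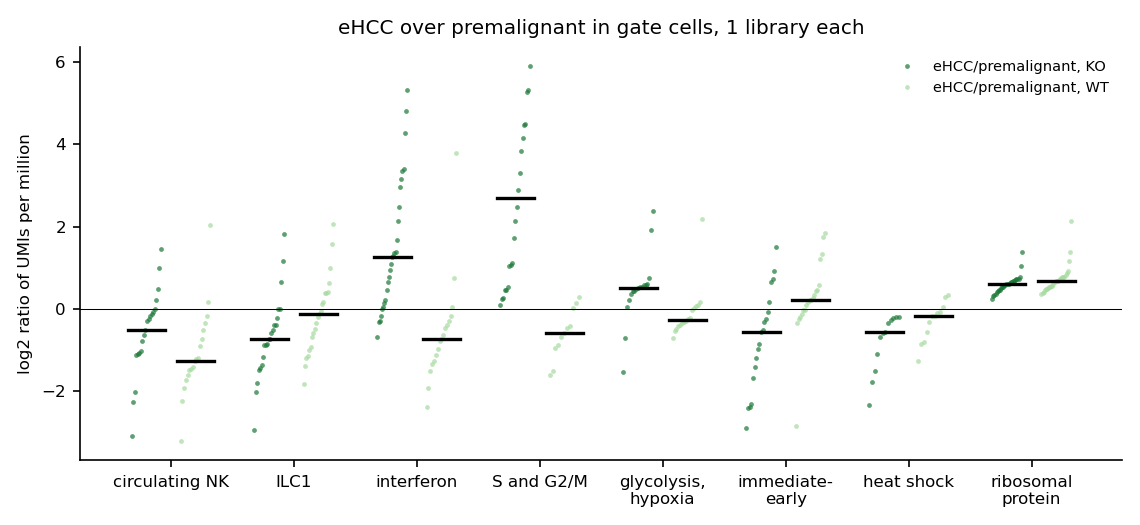
Log2 ratio of eHCC over premalignant in gate cells of the KO libraries (dark) and of the WT libraries (light) for 8 gene lists, 1 point per gene with at least 50 UMIs in the pair and a bar at the median. Genes at 0 UMIs in 1 library have no point. Circulating NK genes have medians of -0.52 in KO (19 genes) and -1.25 in WT (17 genes). Interferon response genes have medians of 1.27 (27 genes) and -0.72 (17 genes), so the labels are shown over unlike sets of genes.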

How the data were processed

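The deposited files were unnormalized UMI counts per gene and barcode (31053 genes) in 4 filtered 10x matrices. Per the submitters' processing notes they were made with bcl2fastq 2.20.0 and Cell Ranger, and per the file headers with software version 3.0.1. The notes name GRCh38 and mm10 without roles, and the remaining steps were not given in the sources used here. The 5′ assay counts molecules by UMI, so levels are not divided by transcript length and are compared between samples, not between genes.

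Barcodes with at least 500 UMIs, 300 genes and at most 25% mitochondrial UMIs were kept (Python 3.11.15, scanpy 1.11.5). Doublets were not removed in the main values; leaving out cells by a scrublet score is an alternative. Gate cells were pooled per library, and levels are CPM. Subsets were compared over 8 library sums with edgeR 4.0.16 (R 4.3.3, TMM, quasi-likelihood, library block, Benjamini-Hochberg), since both subsets came from the same library. A self-test on simulated counts for that comparison (4966 genes) recovered 70 of 100 genes changed 2-fold and 81 of 100 changed 4-fold, with 13 false calls. The simulation gave every gene the same spread, and changed genes dropped by the low-count limit counted as not recovered. Its figures are therefore not the error rates of the real fit. Libraries were compared without a test, by ratios of UMI counts with exact intervals, in genes with at least 50 UMIs in the pair, and higher or lower means at least 1.5-fold. Named genes were the 12 largest called changes in each direction between subsets, the 8 most extreme in each direction for each pair of libraries among genes with at most 20% of a library's UMIs in 1 cell and a gate level of at least 0.1 of that in other barcodes in at least 1 library, free RNA, rule, mitochondrial, sex-linked and receptor segment genes left out, and members of 31 lists. Some genes that met this rule are not reported here. The members, lists and tests were chosen with earlier results of these data known. Promoters came from RefSeq (GRCm38.p6). Alternatives covered the gate, mitochondrial limit, thinning to 1000 UMIs, scaling, low-count limits, DESeq2 1.42.0, the block and leaving out each library.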

Additional observations from a re-analysis of the deposited data

Results flagged for a closer look

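The genes below were ranked in a pair of libraries and had KO over WT log2 ratios of opposite sign at the 2 stages. Their counting intervals leave out 0. How many of all measured genes did so was not counted. Gzmb, Fos, Plac8, Cdkn2c and Zfp395 were ranked by 1 of the 2 ratios given here, so that ratio was large by choice. With 1 library per group the difference between stages was not tested. Gzmb, granzyme B, was 2.55 at eHCC and -0.70 at the premalignant stage. Fos was -3.14 and 0.33. Plac8 was 2.57 and -0.59. Cdkn2c, an inhibitor of cyclin-dependent kinases, was 1.23 and -1.42. Zfp395 was -0.85 and 1.53. Ifi27l2a, an interferon-induced gene, was 4.12 and -3.13. AI504432 was -1.78 and 1.02. Rpl5, a ribosomal protein gene, was -0.43 and 0.32.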

How the results depend on the processing

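Thinning every cell to 1000 UMIs and applying the gate again changed the cells as well as the depth. The log2 ratio of the gate share became -0.05 for KO over WT at eHCC, -0.84 for eHCC over premalignant in KO and 0.28 in WT, and that of the Eomes+ share became -0.19 for eHCC over premalignant in KO. The percentage of genes at least 1.5-fold higher and lower became 16.0 and 8.27 for KO over WT at eHCC and 16.4 and 16.7 for eHCC over premalignant in KO, and the percentage higher became 18.3 in WT. For eHCC over premalignant in KO, Top2a (-0.74) and Hist1h2ap (-1.96) changed sign, as did the core NK median for KO over WT at eHCC (-0.11) and the cytokine median for stage in KO (0.10). TMM scaling gave 23.0 and 11.6 for stage in KO and 14.4 and 8.02 in WT, and turned the stage medians of cytokine receptors (0.01) and killer lectin-like receptors (0.13) in KO and of glycolysis genes in WT (0.04). A minimum of 20 UMIs made 10.6% lower for KO over WT at the premalignant stage.

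The alternatives by subset and by Trac were chosen after seeing the data. Eomes+ cells alone turned the medians of core NK genes (-0.01) for KO over WT at eHCC, of circulating NK (-0.02) and ILC1 genes (0.34) at the premalignant stage, of ILC1 genes for stage in KO (0.54) and of interferon genes for stage in WT (0.16), and Tesc (1.16); 9.55% of genes were higher for stage in WT. Eomes-Cxcr6+ cells alone turned the medians of circulating NK genes (-0.07) and TGF-beta genes (-0.16) at the premalignant stage, and Mcam (0.69), with 15.6% higher for KO over WT at eHCC and 11.3% and 9.07% for stage in KO and WT. The hepatocyte median for KO over WT at the premalignant stage was -0.25 without high scrublet scores and -0.44 with no Trac UMI in place of no CD3 UMI.

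Between subsets, DESeq2 called 74 higher and 91 lower, no low-count limit 306 higher, and thinning 3 and 2 of 133 genes tested. Pairing the subsets by library mattered: with no replicate block 41 were higher and 49 lower. Leaving out each library in turn gave 146 to 180 higher and 177 to 245 lower. The causes of these changes were not tested.
The thinned cells held too few UMIs for a median of the S and G2/M list. Shallow cells limit these comparisons: intervals cover counting error only, and no value here carries the spread between animals.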
